A study of Mus musculus with 9 samples.

Results

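The genes of glycolysis, the pentose phosphate pathway and lactate handling were followed as 1 group in eosinophils taken from mouse quadriceps muscle. The group was set by a fixed list of 38 gene symbols, from the glucose transporters at the cell surface to the kinases that shut off pyruvate dehydrogenase. Membership was set by symbol and not by a cut on a measured value, but the list was chosen with earlier results of these data known. Each symbol matched 1 row of the deposited table of 54146 genes, and all 38 were among the 15886 genes with enough reads to test. RNA had been sequenced from live cells sorted out of quadriceps infiltrates of adult mice, taken as CD45+ and SiglecF+ but CD11c-, Gr1- and MHCII-, so the cell type was set by surface protein. There were 3 groups of 3 libraries, which the design text calls biological replicates. The IL5Tg group carried an interleukin-5 transgene, the mdx group was of the dystrophin-deficient strain used as a model of Duchenne muscular dystrophy, and the mdx_IL5Tg group combined both, so the mdx_IL5Tg and IL5Tg groups share the transgene and the mdx_IL5Tg and mdx groups share the mdx background. All 9 samples, those of IL5Tg too, have mdx as their strain label, which goes against the titles, and the titles set the groups. The promoter that drives the transgene, the sex of the mice and the number of mice behind a library are not in the sources used here. If libraries of a group did not come from separate mice, the p-values below measure only the spread between these libraries.

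Glycolysis splits glucose into pyruvate in the cytosol and yields ATP without oxygen. Lactate dehydrogenase turns pyruvate into lactate, which monocarboxylate transporters carry out of the cell. Pyruvate dehydrogenase, inside the mitochondrion, turns pyruvate into acetyl-CoA for the citric acid cycle unless one of its kinases shuts it off. The pentose phosphate pathway branches from glucose 6-phosphate: its oxidative arm makes NADPH, used by granulocytes for the oxidative burst and for defence against oxidants, and its non-oxidative arm returns sugar phosphates to glycolysis. Granulocytes are known to rely on glycolysis for much of their ATP. Many of these genes are also known targets of the hypoxia-inducible factors, transcription factors that act when oxygen is scarce.

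Library totals ranged from 26752800 to 58368300 expected counts, and the members held between 0.867% and 1.71% of them. TMM scaling factors lay between 1.0003 and 1.0795 in IL5Tg, between 0.8665 and 0.9177 in mdx_IL5Tg and between 1.0238 and 1.1482 in mdx, so the scaling bears on the comparisons with mdx_IL5Tg. The interleukin-5 gene, Il5, was at 317 to 724 CPM (counts scaled to a common library size by TMM factors) in the 6 transgenic libraries and at 0.265 to 0.402 CPM in mdx. Pearson's r across genes between libraries of a group lay between 0.975 and 0.994, and no pair agreed within sampling noise. Library mdx S5 stood apart, with 0.383% mitochondrial counts against 1.28% to 2.29% in the other 8 libraries, and IL5Tg S7 had the highest summed eosinophil markers, at 16000 CPM against 5750 and 8290 CPM in IL5Tg S8 and S9. Of 12 eosinophil markers, edgeR called 0 in mdx_IL5Tg against IL5Tg (5 higher and 6 lower at an unadjusted p under 0.05, 3 and 4 in DESeq2, and 5 and 1 in limma voom). Of these 12, 3 fell in mdx against mdx_IL5Tg and 7 fell in mdx against IL5Tg, where the granule genes Prg2, Prg3, Epx, Ear1, Ear2 and Ear6 were among those that fell. The eotaxin receptor gene Ccr3 was at 809 to 1441 CPM in all 9 libraries. Siglecf, the gene of a surface protein used in the sort, was less even. It was at 330 to 394 CPM in IL5Tg, 449 to 584 in mdx_IL5Tg and 129 to 177 in mdx, the mdx libraries being lowest. Of the 12 eosinophil markers, 0 were called higher in either comparison with mdx. By summed level, markers of macrophages, muscle fibres and fibroblasts were highest in mdx. Their summed level in IL5Tg, mdx_IL5Tg and mdx was 331 to 511, 394 to 609 and 930 to 1710 CPM for 12 macrophage and monocyte genes. It was 9.76 to 14.1, 24.5 to 30.6 and 44.3 to 86.3 CPM for 16 skeletal muscle fibre genes, of which 3 were at or under 1 CPM in every library, and 929 to 2190, 715 to 2870 and 4220 to 10600 CPM for 6 fibroblast genes. Of 12 macrophage and monocyte genes, 5 rose and 1 fell in mdx_IL5Tg against IL5Tg, and 10 rose in mdx against mdx_IL5Tg. In mdx against IL5Tg 11 of them rose and 1 fell. Beside these marker counts, edgeR called 4.35% of all genes tested higher and 2.87% lower in mdx_IL5Tg against IL5Tg. The shares were 11.5% and 10.1% in mdx against mdx_IL5Tg, and 11.8% and 8.96% in mdx against IL5Tg. Of 6 tested class II and dendritic cell genes, which mark cells outside the sort gate, 4 rose in mdx_IL5Tg against IL5Tg, with summed levels of 11.6 to 26.5, 31.5 to 137 and 172 to 261 CPM in IL5Tg, mdx_IL5Tg and mdx. Neutrophil genes had a summed level of 421 to 1340 CPM in IL5Tg, 116 to 168 CPM in mdx_IL5Tg and 12.7 to 337 CPM in mdx. Of these 10 genes, 1 rose (Cxcr2) and 0 fell in mdx_IL5Tg against IL5Tg in edgeR, with the same counts at an unadjusted p under 0.05, in DESeq2 and in limma voom, and their median log2 change was -2.52. Of 11 genes of cycling cells, 6 fell in mdx_IL5Tg against IL5Tg, from a summed 221 to 661 CPM in IL5Tg to 164 to 196 CPM in mdx_IL5Tg. The part of these shifts in the results below was not tested, and in bulk RNA fewer cells of a type and less RNA per cell cannot be told apart.

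**Figure D1:**
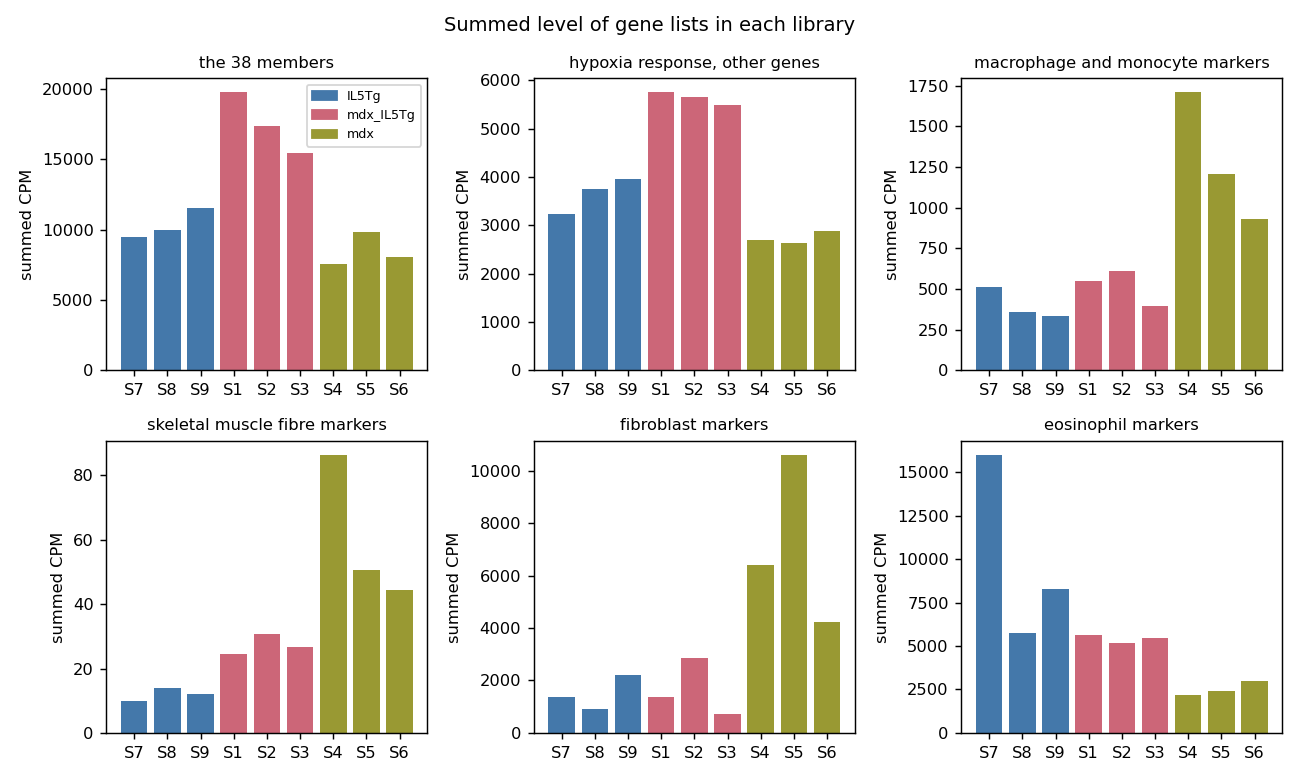
Each bar is 1 library, and its height is the summed TMM-normalised CPM of the 38 members or of 1 of 5 other gene lists, with colours for the 3 groups. The members reach 15418 to 19763 CPM in mdx_IL5Tg, 9458 to 11537 CPM in IL5Tg and 7556 to 9801 CPM in mdx, while the macrophage, muscle fibre and fibroblast markers are highest in mdx.

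The summed level of the 38 members was 9458, 9953 and 11537 CPM in IL5Tg, 19763, 17346 and 15418 CPM in mdx_IL5Tg and 7556, 9801 and 8054 CPM in mdx, in the library order that is kept below (S7, S8 and S9 for IL5Tg, S1, S2 and S3 for mdx_IL5Tg, S4, S5 and S6 for mdx). The mdx_IL5Tg libraries were the 3 highest, and none overlapped with either other group. In mdx_IL5Tg against IL5Tg, 13 of 38 members were called higher at an adjusted p under 0.05 in edgeR, where 4.35% of all genes tested were called higher, and 0 were called lower, where 2.87% of all genes were. At an unadjusted p under 0.05, 18 members were higher and 2 lower, and limma voom with quality weights called 2 lower. The median log2 change of the members was 0.33, beside -0.05 over all genes tested. All 3 mdx_IL5Tg libraries lay above all 3 IL5Tg libraries for 19 members (19.4% of all genes) and below them for 2 (16.4%). The 13 members were Hk2, Pfkl, Pfkp, Aldoa, Tpi1, Gapdh, Pgk1, Pgam1, Eno1, Pkm, Ldha, Slc16a3 and Pdk1. They cover glucose phosphorylation, the committed step, every step from aldolase to pyruvate, lactate formation and lactate export. The count was 6 without mdx_IL5Tg S1, 8 without mdx_IL5Tg S2, 8 without IL5Tg S7 and 8 without IL5Tg S8. Calls of Pfkl, Tpi1, Pgk1, Pgam1, Eno1 and Pdk1 were kept under all 19 alternatives tried.

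In mdx against mdx_IL5Tg, 23 of 38 members were called lower, where 10.1% of all genes were, and 2 were called higher, where 11.5% of all genes were. The members' median log2 change was -0.74, beside 0.13 over all genes. The mdx libraries lay below all mdx_IL5Tg libraries for 25 members (18.8% of all genes) and above them for 4 (23.2%). In mdx against IL5Tg, 10 members were called lower, where 8.96% of all genes were, and 2 higher, where 11.8% were. Here the members' median was -0.22, beside 0.01 over all genes, and the groups did not overlap for 15 members that were lower (19.7% of all genes) and 4 that were higher (22.2%). The count of 10 was 6 without IL5Tg S9. For 18 members all 3 mdx_IL5Tg libraries lay above all 6 others, a pattern shown by 8.52% of all genes, and for 0 members they lay below all 6, against 4.41% of all genes. Scaled by library totals only, 11 members were called higher and 1 lower in mdx_IL5Tg against IL5Tg, 5 higher and 21 lower in mdx against mdx_IL5Tg, and 3 higher and 10 lower in mdx against IL5Tg. The comparisons share libraries in pairs, so each one's values are given side by side below and their calls are not independent of each other. Over the 3 comparisons 27 members were called at least once and 11 were not: Slc16a1, Pfkfb1, Pfkfb2, Pfkfb4, Eno2, Pdk2, Pdk4, Pdha1, Dlat, Pgls and Pgd.

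**Figure D2:**
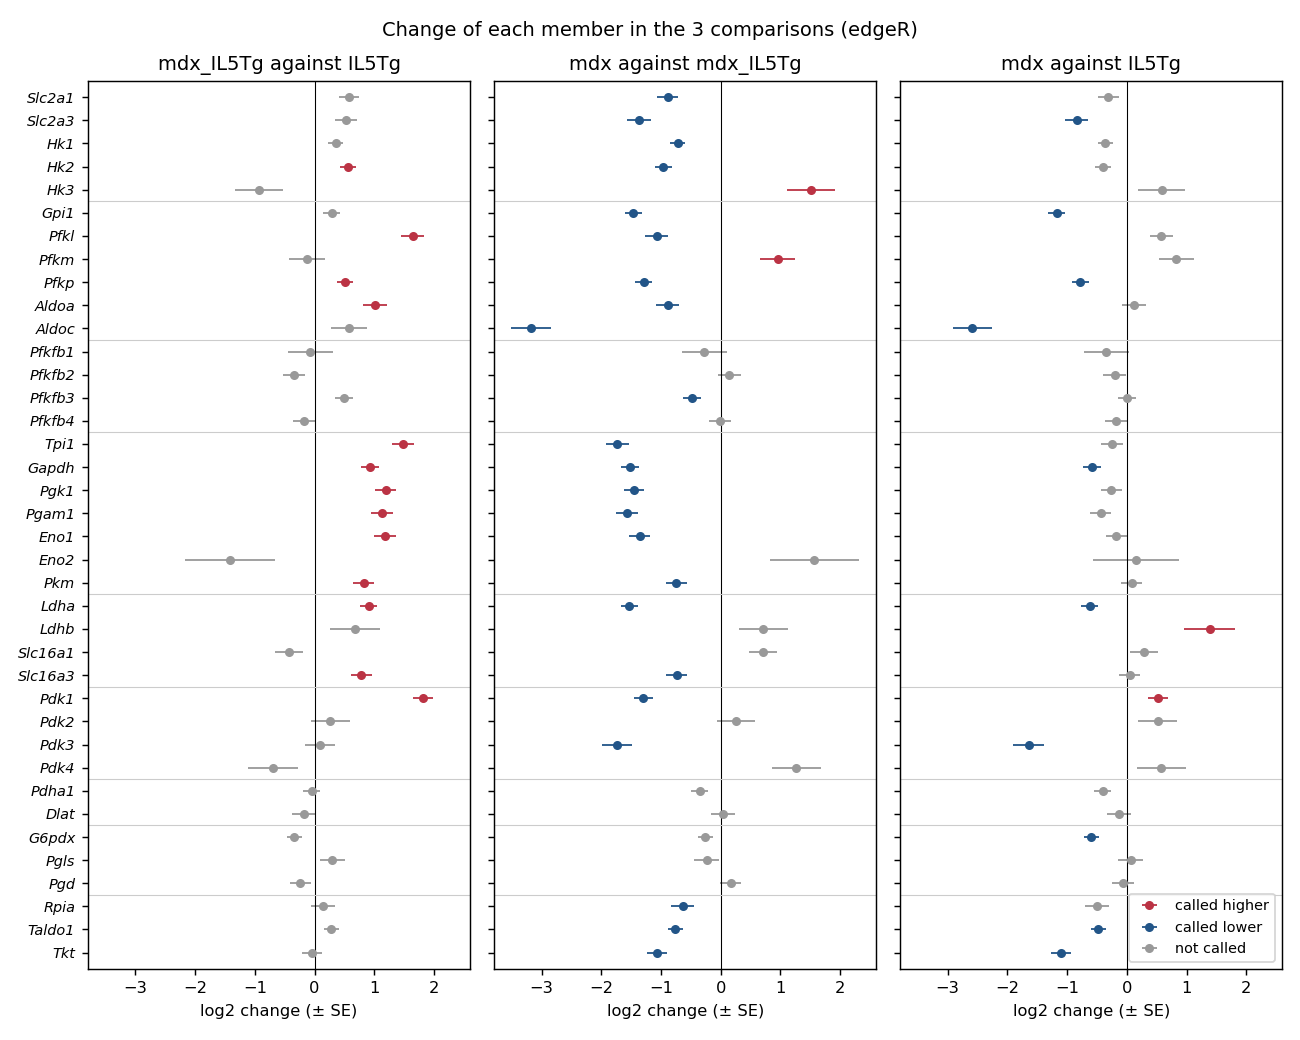
Each point is the log2 change of 1 member with its standard error, in 3 panels for the 3 comparisons, with members listed from glucose uptake at the top to the non-oxidative pentose phosphate arm at the bottom and coloured by the edgeR call. Of the 13 members called higher in mdx_IL5Tg against IL5Tg, 6 lie in the block of 7 from triose to pyruvate, and 23 are called lower in mdx against mdx_IL5Tg.

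Per kilobase of exon, aldolase A (Aldoa) had the highest mean level of the 38 in each group, with means and SDs (n = 3) of 762 ± 109 CPM per kb in mdx_IL5Tg, 411 ± 93.5 in mdx and 378 ± 70.4 in IL5Tg. Gapdh was the second highest in IL5Tg and mdx_IL5Tg, at 294 ± 35.0 and 561 ± 72.7 CPM per kb. On this scale Taldo1, of the non-oxidative pentose phosphate arm, was the third highest in IL5Tg at 255 ± 6.84 CPM per kb, ahead of Pkm and Ldha at 205 ± 20.9 and 187 ± 14.8. This order depends on the division by length. Without it, Slc16a3 had the highest mean in IL5Tg and mdx, at 1225 and 1265 CPM against 1101 and 1198 for Aldoa. In mdx_IL5Tg Gapdh was then highest, at 2320 CPM against 2219 for Aldoa. Taldo1, at 552.5 CPM in IL5Tg, was then below Pkm and Ldha, at 1024 and 619.7 CPM. At the low end, Pfkfb1, Eno2, Pdk2, Pdk4, Pfkfb2, Pfkm and Ldhb had means of at most 1.54 CPM per kb in any group.

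The promoters of 5 members are shown because these genes moved together in mdx_IL5Tg against IL5Tg and several are known targets of the hypoxia-inducible factors. The sequences are RefSeq windows of build GRCm38.p6, from 250 bases before to 50 after a RefSeq start site, written 5′ to 3′ on the gene's own strand. Capitals mark the core of the hypoxia response element, ACGTG or GCGTG, or the same core read on the other strand, CACGT or CACGC. The windows lie at chr2:71872974-71873273 (plus strand) for Pdk1, chr10:78009758-78010057 (minus strand) for Pfkl, chrX:106186850-106187149 (plus strand) for Pgk1, chr7:46845554-46845853 (plus strand) for Ldha and chr6:124814109-124814408 (minus strand) for Tpi1.
Pdk1: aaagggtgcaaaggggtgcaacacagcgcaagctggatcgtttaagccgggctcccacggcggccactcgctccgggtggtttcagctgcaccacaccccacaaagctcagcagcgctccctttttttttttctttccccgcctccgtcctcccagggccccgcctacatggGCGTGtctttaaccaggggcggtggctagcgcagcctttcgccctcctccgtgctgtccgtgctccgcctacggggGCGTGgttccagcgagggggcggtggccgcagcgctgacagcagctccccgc
Pfkl: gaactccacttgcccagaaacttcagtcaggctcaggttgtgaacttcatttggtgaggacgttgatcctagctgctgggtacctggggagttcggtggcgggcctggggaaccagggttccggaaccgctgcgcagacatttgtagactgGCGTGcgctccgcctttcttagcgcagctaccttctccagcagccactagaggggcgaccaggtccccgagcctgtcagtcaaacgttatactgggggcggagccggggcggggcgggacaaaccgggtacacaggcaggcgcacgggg
Pgk1: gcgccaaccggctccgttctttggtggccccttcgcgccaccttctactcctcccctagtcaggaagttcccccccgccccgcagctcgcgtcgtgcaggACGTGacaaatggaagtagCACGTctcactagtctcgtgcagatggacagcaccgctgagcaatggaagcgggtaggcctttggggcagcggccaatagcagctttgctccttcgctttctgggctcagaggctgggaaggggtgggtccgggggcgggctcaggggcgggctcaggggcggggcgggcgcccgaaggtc
Ldha: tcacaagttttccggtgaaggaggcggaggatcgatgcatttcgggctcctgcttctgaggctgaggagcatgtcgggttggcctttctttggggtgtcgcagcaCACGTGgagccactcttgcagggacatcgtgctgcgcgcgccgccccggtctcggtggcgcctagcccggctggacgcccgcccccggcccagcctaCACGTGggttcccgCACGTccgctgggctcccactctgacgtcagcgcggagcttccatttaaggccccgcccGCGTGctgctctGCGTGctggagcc
Tpi1: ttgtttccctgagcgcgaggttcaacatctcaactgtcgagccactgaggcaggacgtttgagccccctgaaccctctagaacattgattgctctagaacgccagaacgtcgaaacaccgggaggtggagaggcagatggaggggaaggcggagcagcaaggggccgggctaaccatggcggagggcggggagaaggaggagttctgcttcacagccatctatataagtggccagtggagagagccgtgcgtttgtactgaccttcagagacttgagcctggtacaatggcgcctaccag
Pdk1 held 2 matches and Pgk1 also held 2, Pfkl held 1, and Tpi1 held 0 in this window. Ldha held 7 match starts, of which 4 come in 2 overlapping pairs, since the palindrome CACGTG is matched on both strands. Of 37 members with a window in the table (Slc2a3 had none), 30 held at least 1 match, or 81.1%, against 43.8% of all 32851 windows of the same length. Among the 13 members that rose in mdx_IL5Tg against IL5Tg 10 held a match (76.9%), and among the other 24 members 20 did (83.3%). The longer CACGTG was found in 4 of the 37 windows (10.8%) and in 7.15% of all windows. The shares of all windows count every window of a gene, while each member enters with 1 window. Members and all windows were not matched for GC content, and enrichment was not tested. For 13 members the table holds 2 or more windows, and the one nearest to the 5′ end of the GENCODE gene model was used. The start site of the Ldha window lies 4329 bases inside that gene model, and that of Pfkfb2 lies 13205 bases from its 5′ end. For the other 35 members with a window the distance was at most 772 bases. A match says that these letters are present, and no binding was measured.

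Glucose uptake and phosphorylation came first in the pathway. Slc2a1 encodes the widespread glucose carrier GLUT1. Its levels were 198, 232 and 287 CPM in IL5Tg, 385, 351 and 336 in mdx_IL5Tg and 168, 233 and 179.5 in mdx. The mdx_IL5Tg libraries were the 3 highest, and the IL5Tg and mdx ranges overlapped. Slc2a1 fell by 0.89 ± 0.17 (SE, adjusted p = 0.0057 by edgeR) in mdx against mdx_IL5Tg, and the change in mdx_IL5Tg against IL5Tg was 0.58 ± 0.17 (SE, adjusted p = 0.062 by edgeR), which did not pass. Slc2a3, which encodes the high-affinity carrier GLUT3, was at 609, 771 and 991 CPM in IL5Tg, 1258, 1118 and 1042 in mdx_IL5Tg and 362, 498 and 464 in mdx. No group overlapped with another, mdx_IL5Tg being highest and mdx lowest. Slc2a3 fell by 1.37 ± 0.20 (SE, adjusted p = 0.0012 by edgeR) in mdx against mdx_IL5Tg and by 0.84 ± 0.19 (SE, adjusted p = 0.012 by edgeR) in mdx against IL5Tg, the latter with an adjusted p of 0.051 without IL5Tg S9. In mdx_IL5Tg against IL5Tg its change was 0.53 ± 0.19 (SE, adjusted p = 0.11 by edgeR). As a share of the 2 carriers' summed level per kb, Slc2a1 made up 37.4% to 40.2% in IL5Tg, 38.8% to 40.0% in mdx_IL5Tg and 44.4% to 49.1% in mdx. Its share in the mdx libraries lay above that in the other 6.

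Hexokinases trap glucose in the cell as glucose 6-phosphate. Hk2, the inducible form, was at 142, 147 and 180.3 CPM in IL5Tg, 248, 234 and 212 in mdx_IL5Tg and 110.2, 130.2 and 116 in mdx. All mdx_IL5Tg libraries lay above all others, and those of mdx lay below all of IL5Tg. Hk2 rose by 0.56 ± 0.14 (SE, adjusted p = 0.037 by edgeR) in mdx_IL5Tg against IL5Tg and fell by 0.96 ± 0.14 (SE, adjusted p = 0.0012 by edgeR) in mdx against mdx_IL5Tg. The rise had adjusted p-values of 0.092 to 0.16 when mdx_IL5Tg S1 or S2 or IL5Tg S7 or S8 was left out, with changes of 0.54 to 0.60, and 0.091 when only library totals were used for scaling. Hk1, the constitutive form, was at 106, 105 and 118 CPM in IL5Tg, 155, 144 and 123 in mdx_IL5Tg and 80.4, 90.4 and 85.3 in mdx, in the same order of groups. It fell by 0.72 ± 0.13 (SE, adjusted p = 0.0037 by edgeR) in mdx against mdx_IL5Tg, and its change of 0.36 ± 0.13 (SE, adjusted p = 0.1 by edgeR) in mdx_IL5Tg against IL5Tg did not pass. Hk3, a myeloid form, ran the other way. Its levels were 24.4, 7.72 and 11.1 CPM in IL5Tg, 9.28, 7.70 and 5.74 in mdx_IL5Tg and 16.2, 30.8 and 17.8 in mdx, with mdx S5 and IL5Tg S7 highest. Hk3 rose by 1.51 ± 0.40 (SE, adjusted p = 0.024 by edgeR) in mdx against mdx_IL5Tg, and this call ended without mdx S5 (1.16, edgeR adjusted p = 0.07) or any 1 of the mdx_IL5Tg libraries. Per kb, Hk2 held 55.5% to 64.2% in IL5Tg, 66.8% to 69.0% in mdx_IL5Tg and 53.5% to 57.2% in mdx of the 3 hexokinases, and Hk3 held 5.37% to 15.5% in IL5Tg, 3.04% to 4.05% in mdx_IL5Tg and 13.7% to 20.5% in mdx. The Hk3 share was lowest in the 3 mdx_IL5Tg libraries.

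**Figure D3:**
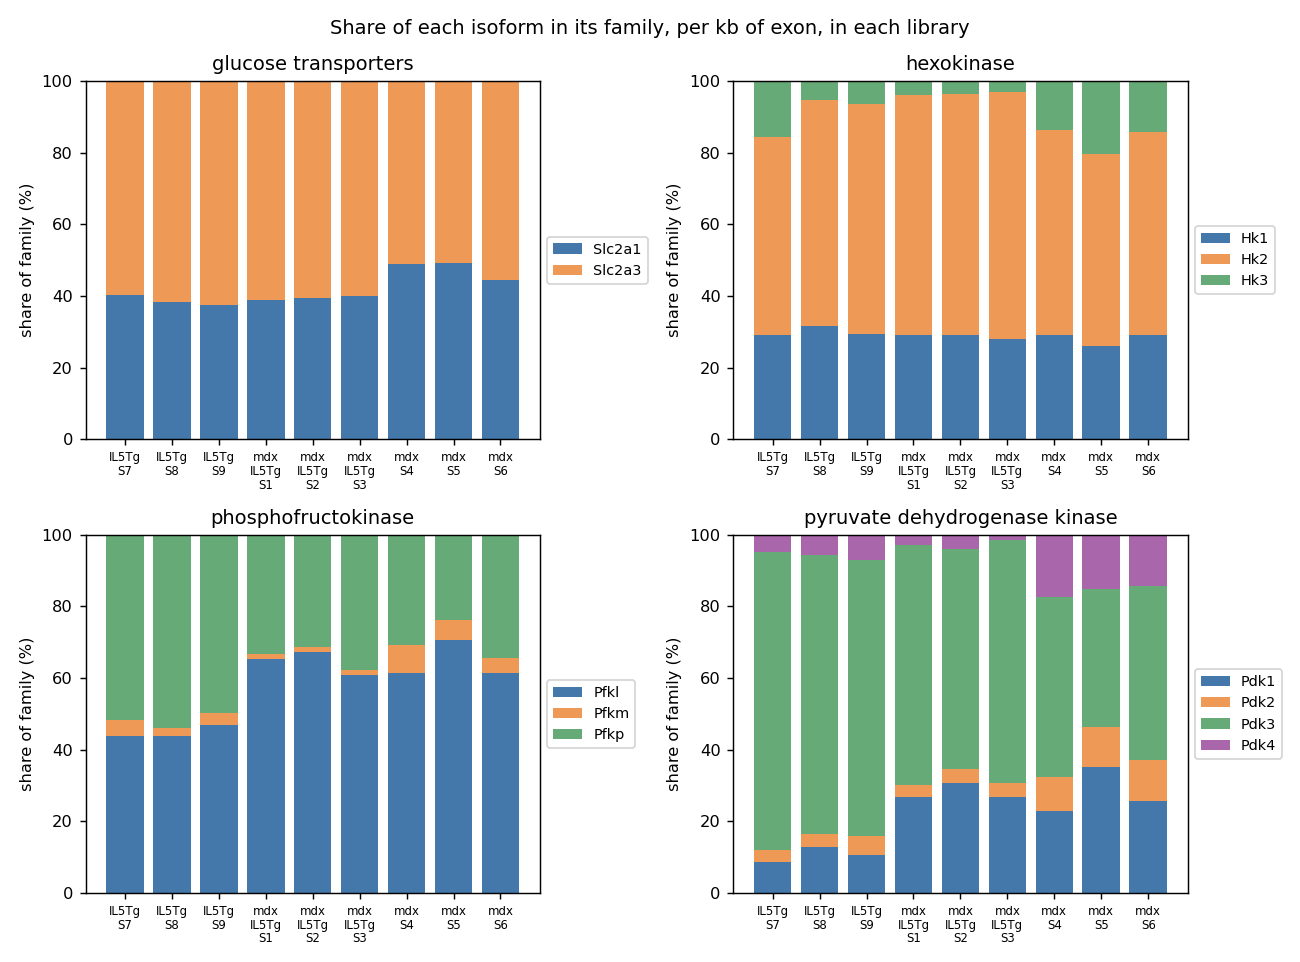
Stacked bars give, for each of the 9 libraries, the percent of a family's summed level per kb of exon held by each isoform, for glucose transporters, hexokinases, phosphofructokinases and pyruvate dehydrogenase kinases. Pfkl holds 43.8% to 46.9% of phosphofructokinase in IL5Tg and 60.8% to 70.6% in the other 6 libraries, and Pdk3 holds 77.0% to 83.2% of the kinases in IL5Tg and 38.6% to 50.2% in mdx. Without division by length Pfkl holds 28.6% to 31.6% and 44.2% to 58.2%, and Pdk3 60.4% to 69.2% and 21.4% to 32.3%.

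Glucose 6-phosphate isomerase (Gpi1) makes fructose 6-phosphate, which phosphofructokinase commits to glycolysis. Gpi1 was at 623, 492 and 591 CPM in IL5Tg, 779, 689 and 611 in mdx_IL5Tg and 234, 251 and 270.2 in mdx. The mdx libraries were far below both other groups, which overlapped. Gpi1 fell by 1.46 ± 0.15 (SE, adjusted p = 0.00012 by edgeR) in mdx against mdx_IL5Tg and by 1.18 ± 0.15 (SE, adjusted p = 0.00046 by edgeR) in mdx against IL5Tg, while its change of 0.29 ± 0.14 (SE, adjusted p = 0.23 by edgeR) in mdx_IL5Tg against IL5Tg did not pass. An antisense gene model shares 741 of its 6452 exonic bases, and whether the counts used strand is not stated in the sources used here.

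The phosphofructokinase subunits did not move alike. The liver-type subunit gene Pfkl (ENSMUSG00000020277.10, GRCm38 chromosome 10, 77986947 to 78010083, minus strand) was at 59.6, 64.3 and 75.1 CPM in IL5Tg, 233, 220.3 and 169 in mdx_IL5Tg and 78.3, 126 and 92.8 in mdx. No group overlapped with another, and mdx lay between the other groups. Pfkl rose 3.13-fold, log2 1.65 ± 0.20 (SE, adjusted p = 0.0024 by edgeR), in mdx_IL5Tg against IL5Tg and fell by 1.07 ± 0.19 (SE, adjusted p = 0.004 by edgeR) in mdx against mdx_IL5Tg. Its change of 0.58 ± 0.19 (SE, adjusted p = 0.054 by edgeR) in mdx against IL5Tg did not pass. The platelet-type gene Pfkp was at 141, 159 and 159.9 CPM in IL5Tg, 239, 206 and 212 in mdx_IL5Tg and 78.8, 85.3 and 104 in mdx, with mdx below rather than above IL5Tg. Pfkp rose by 0.52 ± 0.14 (SE, adjusted p = 0.048 by edgeR) in mdx_IL5Tg against IL5Tg, a call that ended under 9 of 19 alternatives. It fell by 1.29 ± 0.14 (SE, adjusted p = 2e-04 by edgeR) in mdx against mdx_IL5Tg and by 0.78 ± 0.14 (SE, adjusted p = 0.0035 by edgeR) in mdx against IL5Tg. The muscle-type gene Pfkm was at 2.98, 1.72 and 2.76 CPM in IL5Tg, 2.39, 2.54 and 1.91 in mdx_IL5Tg and 5.03, 4.92 and 3.33 in mdx, and rose by 0.95 ± 0.29 (SE, adjusted p = 0.041 by edgeR) in mdx against mdx_IL5Tg, a call kept under 8 of 19 alternatives. Skeletal muscle fibre markers were also highest in mdx, and their part in the Pfkm value was not tested. As a share of the 3 subunits per kb, Pfkl made up 43.8% to 46.9% in IL5Tg, 60.8% to 67.2% in mdx_IL5Tg and 61.3% to 70.6% in mdx, and Pfkp made up 49.7% to 53.9% in IL5Tg, 31.3% to 37.8% in mdx_IL5Tg and 23.9% to 34.3% in mdx. On this scale the Pfkp share was the larger in every IL5Tg library, and in the other 6 libraries the Pfkl share was. Which subunit was the larger depends on the division by length, since without it Pfkp was the larger in mdx_IL5Tg S1 and S3 and in mdx S4 and S6 too. Without length the Pfkl share was 28.6% to 31.6% in IL5Tg and 44.2% to 58.2% in the other 6 libraries, again without overlap.

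Aldolase splits fructose 1,6-bisphosphate into trioses. The main gene, Aldoa, was at 927, 1048 and 1327 CPM in IL5Tg, 2527, 2235 and 1895 in mdx_IL5Tg and 1036, 1512 and 1045 in mdx. The mdx_IL5Tg libraries lay above all others, and the other groups overlapped. Aldoa rose by 1.01 ± 0.20 (SE, adjusted p = 0.022 by edgeR) in mdx_IL5Tg against IL5Tg and fell by 0.89 ± 0.20 (SE, adjusted p = 0.011 by edgeR) in mdx against mdx_IL5Tg. Its rise had an adjusted p of 0.059 to 0.11 without IL5Tg S7 or S8 or mdx_IL5Tg S1 or S2. Aldoc, the brain-type aldolase, was at most 0.583% of aldolase per kb in any library. Its levels were 5.18, 4.09 and 8.72 CPM in IL5Tg, 10.7, 8.18 and 8.07 in mdx_IL5Tg and 0.775, 1.24 and 0.989 in mdx, with the mdx libraries at 1.24 CPM or less. Among the members Aldoc fell furthest, by 3.17 ± 0.33 (SE, adjusted p = 0.00017 by edgeR) in mdx against mdx_IL5Tg and by 2.59 ± 0.33 (SE, adjusted p = 0.00053 by edgeR) in mdx against IL5Tg, from counts of 37 to 41 in the mdx libraries and 126 to 539 in the others.

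The PFKFB enzymes set the level of fructose 2,6-bisphosphate, the signal that switches phosphofructokinase on. Pfkfb3, the form with the highest ratio of kinase to phosphatase activity, held 72.0% to 78.8% in IL5Tg, 81.2% to 85.3% in mdx_IL5Tg and 77.3% to 78.7% in mdx of the 4 genes per kb. It was at 104, 131 and 112 CPM in IL5Tg, 169.6, 185 and 134 in mdx_IL5Tg and 122, 104 and 123 in mdx, highest in the mdx_IL5Tg libraries. Pfkfb3 fell by 0.49 ± 0.15 (SE, adjusted p = 0.043 by edgeR) in mdx against mdx_IL5Tg, where the call ended under 7 of 19 alternatives, and its change of 0.49 ± 0.15 (SE, adjusted p = 0.071 by edgeR) in mdx_IL5Tg against IL5Tg did not pass. Pfkfb1, Pfkfb2 and Pfkfb4 were called in no comparison, with log2 changes between -0.34 and 0.14. Their levels ranged from 0.593 to 1.21, from 5.11 to 7.46 and from 14.8 to 22.7 CPM over the 9 libraries.

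From triose phosphate to pyruvate, 6 of 7 members rose in mdx_IL5Tg against IL5Tg, with a median log2 change of 1.14 over the 7. Tpi1, triose phosphate isomerase (ENSMUSG00000023456.15, GRCm38 chromosome 6, 124810586 to 124814296, minus strand), was at 173, 148 and 210.4 CPM in IL5Tg, 587, 499 and 401 in mdx_IL5Tg and 132, 172 and 145 in mdx. The mdx_IL5Tg libraries were the 3 highest by a wide margin, and IL5Tg and mdx overlapped. Tpi1 rose 2.80-fold, log2 1.49 ± 0.19 (SE, adjusted p = 0.0032 by edgeR), in mdx_IL5Tg against IL5Tg and fell by 1.73 ± 0.19 (SE, adjusted p = 2e-04 by edgeR) in mdx against mdx_IL5Tg. Gapdh, the dehydrogenase that makes NADH and 1,3-bisphosphoglycerate and a common reference gene in expression work, was at 1107, 1158 and 1379 CPM in IL5Tg, 2647, 2257 and 2056 in mdx_IL5Tg and 763, 851 and 823 in mdx. No group overlapped with another, with mdx lowest. It rose by 0.93 ± 0.15 (SE, adjusted p = 0.0096 by edgeR) in mdx_IL5Tg against IL5Tg, a call with an adjusted p of 0.057 without mdx_IL5Tg S1. Gapdh fell by 1.51 ± 0.15 (SE, adjusted p = 0.00011 by edgeR) in mdx against mdx_IL5Tg and by 0.58 ± 0.15 (SE, adjusted p = 0.019 by edgeR) in mdx against IL5Tg, the latter with adjusted p-values of 0.072 without IL5Tg S9 and 0.065 without mdx S4.

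Phosphoglycerate kinase (Pgk1, ENSMUSG00000062070.12, GRCm38 chromosome X, 106187100 to 106203699, plus strand) makes the first ATP of the pathway. Its levels were 267, 247 and 305 CPM in IL5Tg, 707, 664 and 499 in mdx_IL5Tg and 199.5, 268 and 218 in mdx, with mdx_IL5Tg above all other libraries. Pgk1 rose 2.28-fold, log2 1.19 ± 0.17 (SE, adjusted p = 0.0064 by edgeR), in mdx_IL5Tg against IL5Tg and fell by 1.45 ± 0.17 (SE, adjusted p = 0.00039 by edgeR) in mdx against mdx_IL5Tg. Pgam1, the phosphoglycerate mutase of most tissues, was at 172, 134 and 199 CPM in IL5Tg, 436, 382 and 292 in mdx_IL5Tg and 118, 118 and 136 in mdx, in the same order. Pgam1 rose by 1.14 ± 0.18 (SE, adjusted p = 0.0097 by edgeR) and fell by 1.57 ± 0.19 (SE, adjusted p = 0.00036 by edgeR) in these comparisons, respectively. Enolase 1 (Eno1) was at 654, 666 and 825 CPM in IL5Tg, 1909, 1636 and 1316 in mdx_IL5Tg and 564, 745 and 587 in mdx. It rose by 1.18 ± 0.18 (SE, adjusted p = 0.0076 by edgeR) and fell by 1.36 ± 0.18 (SE, adjusted p = 0.00079 by edgeR) in the same pair of comparisons. In mdx against IL5Tg none of Tpi1, Pgk1, Pgam1 and Eno1 passed, with changes of -0.24, -0.26, -0.44 and -0.18. The neuronal enolase gene Eno2 had counts of 3 to 87 and was called in no comparison, with standard errors of 0.72 to 0.75 on the log2 scale. RSEM divides reads among near-identical copies, so these values carry that uncertainty, and the named copies Eno1b, Pgam1-ps2 and Aldoart1 had at most 334, 213 and 106 estimated counts in a library.

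Pyruvate kinase (Pkm) makes the second ATP and pyruvate, and its deposited value sums all of its splice forms. It was at 916, 1033 and 1124 CPM in IL5Tg, 2008, 1793 and 1630 in mdx_IL5Tg and 971, 1346 and 928 in mdx. The mdx_IL5Tg libraries were highest, and mdx S5 was the highest of the others. Pkm rose by 0.82 ± 0.17 (SE, adjusted p = 0.026 by edgeR) in mdx_IL5Tg against IL5Tg, with adjusted p-values of 0.058 to 0.13 without any 1 of the IL5Tg libraries or mdx_IL5Tg S1 or S2. Pkm fell by 0.74 ± 0.17 (SE, adjusted p = 0.013 by edgeR) in mdx against mdx_IL5Tg, with an adjusted p of 0.052 without mdx_IL5Tg S1. A gene model on the same strand shares 767 of its 5001 exonic bases.

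**Figure D4:**
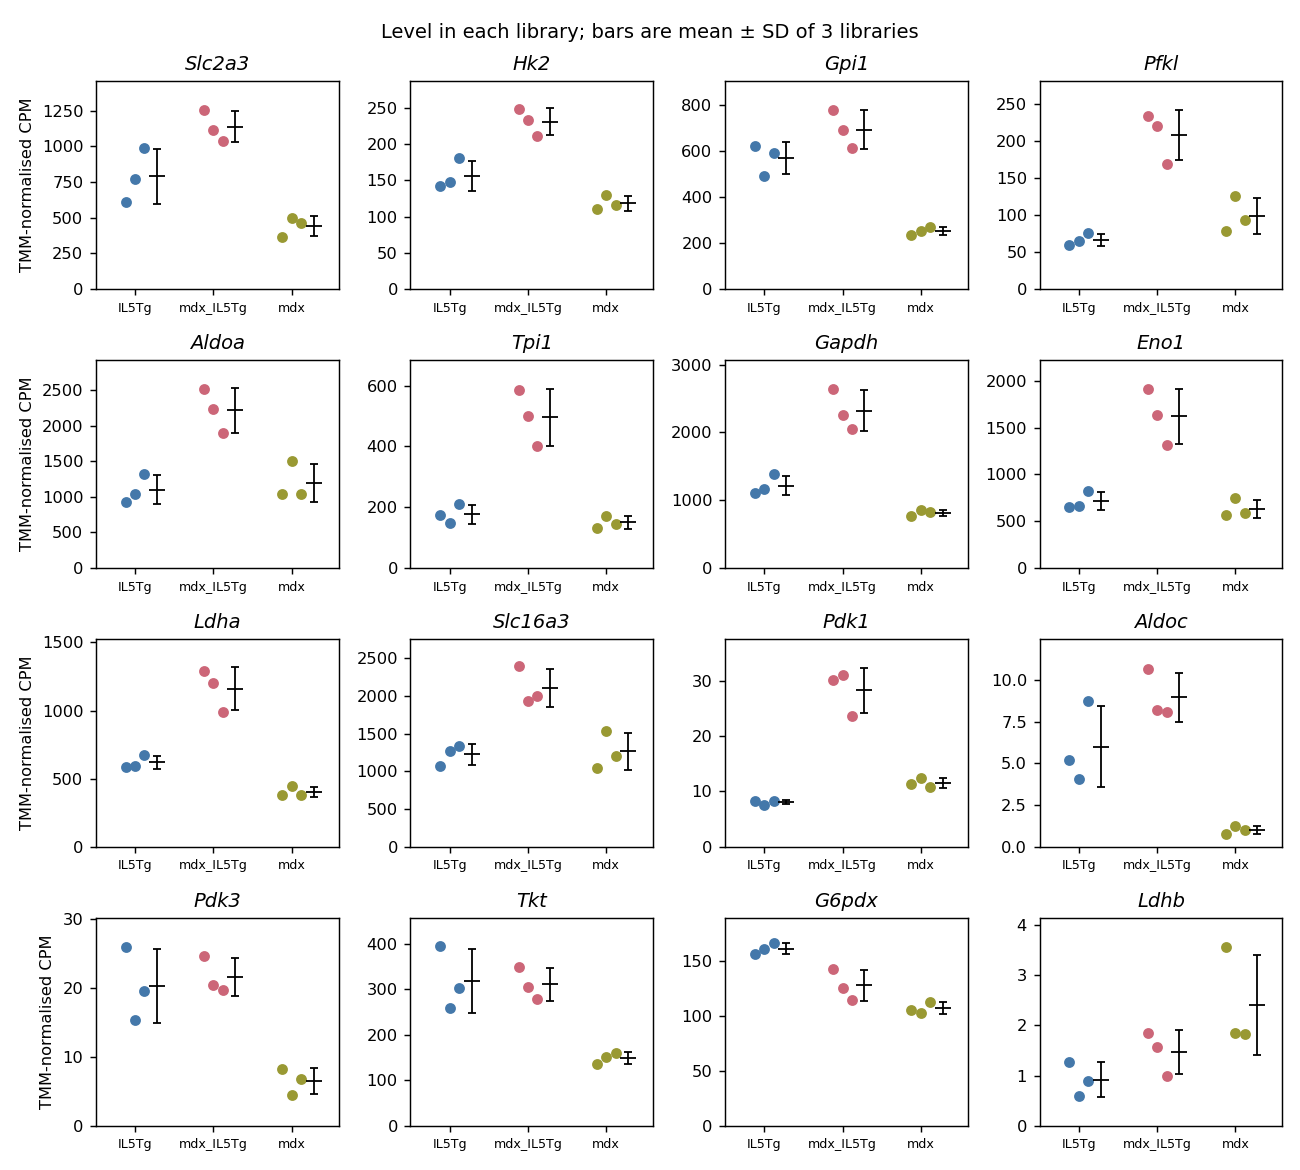
Points give the TMM-normalised CPM of 16 members in each library, with the mean and SD of the 3 libraries of a group beside them, on linear axes that start at 0. Tpi1, Gapdh, Eno1, Ldha and Pdk1 are highest in the 3 mdx_IL5Tg libraries, while Gpi1, Aldoc, Pdk3 and Tkt are lowest in the 3 mdx libraries.

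Lactate dehydrogenase A (Ldha) favours the step from pyruvate to lactate. Ldha was at 588, 595 and 676 CPM in IL5Tg, 1293, 1201 and 992 in mdx_IL5Tg and 381, 447 and 382 in mdx. No group overlapped with another, and mdx was lowest. It rose by 0.91 ± 0.14 (SE, adjusted p = 0.0097 by edgeR) in mdx_IL5Tg against IL5Tg, a call with an adjusted p of 0.06 without mdx_IL5Tg S1, and fell by 1.53 ± 0.15 (SE, adjusted p = 8.6e-05 by edgeR) in mdx against mdx_IL5Tg. In mdx against IL5Tg it fell by 0.62 ± 0.14 (SE, adjusted p = 0.013 by edgeR), with adjusted p-values of 0.053 without IL5Tg S9 and 0.0503 without mdx S4. Ldhb, the heart-type subunit that favours the reverse step, was at 1.28, 0.584 and 0.895 CPM in IL5Tg, 1.86, 1.56 and 0.992 in mdx_IL5Tg and 3.56, 1.84 and 1.83 in mdx. It rose by 1.39 ± 0.43 (SE, adjusted p = 0.041 by edgeR) in mdx against IL5Tg on counts of 18 to 170, and the call ended under 7 of 19 alternatives. Per kb Ldha made up at least 98.1% of the pair in every library.

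The lactate exporter gene Slc16a3, which encodes MCT4, was at 1067, 1271 and 1336 CPM in IL5Tg, 2395, 1933 and 2001 in mdx_IL5Tg and 1048, 1537 and 1210 in mdx. The mdx_IL5Tg libraries were highest, and IL5Tg and mdx overlapped. Slc16a3 rose by 0.78 ± 0.17 (SE, adjusted p = 0.03 by edgeR) in mdx_IL5Tg against IL5Tg, with adjusted p-values of 0.064 to 0.15 without any 1 of the IL5Tg libraries or mdx_IL5Tg S1 or S2. It fell by 0.74 ± 0.17 (SE, adjusted p = 0.014 by edgeR) in mdx against mdx_IL5Tg, with an adjusted p of 0.057 without mdx_IL5Tg S1. Slc16a1, which encodes MCT1, was called in no comparison, and its levels of 8.38 to 18.5 CPM were at most 2.08% of the pair per kb. The widest change of Slc16a1 was 0.72 ± 0.24 (SE, adjusted p = 0.051 by edgeR) in mdx against mdx_IL5Tg. Bsg, the chaperone that carries both exporters to the cell surface and no member of the list, was at 107, 100.1 and 126 CPM in IL5Tg, 289.5, 252 and 196 in mdx_IL5Tg and 105, 118 and 103 in mdx. It rose by 1.15 ± 0.16 (SE, adjusted p = 0.0057 by edgeR) in mdx_IL5Tg against IL5Tg and fell by 1.18 ± 0.16 (SE, adjusted p = 0.00094 by edgeR) in mdx against mdx_IL5Tg.

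Pyruvate dehydrogenase kinases switch off the enzyme that turns pyruvate into acetyl-CoA. Pdk1 (ENSMUSG00000006494.11, GRCm38 chromosome 2, 71873224 to 71903858, plus strand) had the largest rise of the members. Its levels were 8.23, 7.63 and 8.20 CPM in IL5Tg, 30.1, 31.0 and 23.6 in mdx_IL5Tg and 11.4, 12.4 and 10.8 in mdx. No group overlapped with another, with IL5Tg lowest and mdx between. Pdk1 rose 3.52-fold, log2 1.82 ± 0.17 (SE, adjusted p = 0.00065 by edgeR), in mdx_IL5Tg against IL5Tg and fell by 1.29 ± 0.16 (SE, adjusted p = 0.00056 by edgeR) in mdx against mdx_IL5Tg. Its rise of 0.52 ± 0.16 (SE, adjusted p = 0.044 by edgeR) in mdx against IL5Tg was kept under 6 of 19 alternatives. Pdk3 was at 26.0, 15.3 and 19.6 CPM in IL5Tg, 24.8, 20.5 and 19.7 in mdx_IL5Tg and 8.19, 4.49 and 6.73 in mdx, with the mdx libraries below all others. It fell by 1.74 ± 0.26 (SE, adjusted p = 0.0014 by edgeR) in mdx against mdx_IL5Tg and by 1.64 ± 0.26 (SE, adjusted p = 0.0017 by edgeR) in mdx against IL5Tg, and its change of 0.09 ± 0.25 (SE, adjusted p = 0.84 by edgeR) in mdx_IL5Tg against IL5Tg did not pass. Per kb Pdk3 held 77.0% to 83.2% in IL5Tg, 61.4% to 68.0% in mdx_IL5Tg and 38.6% to 50.2% in mdx of the 4 kinases, and Pdk1 held 8.68% to 12.8% in IL5Tg, 26.8% to 30.7% in mdx_IL5Tg and 22.9% to 35.1% in mdx. Without division by length the order of these kinases was another, with Pdk3 at 60.4% to 69.2% in IL5Tg, 37.3% to 43.6% in mdx_IL5Tg and 21.4% to 32.3% in mdx, and Pdk1 at 21.9% to 30.1%, 52.0% to 56.5% and 44.8% to 59.4%. Pdk3 was thus the largest share in IL5Tg on both scales, and in the other groups only per kb. Pdk2 and Pdk4 were at 0.876 to 1.98 and 0.548 to 3.89 CPM and were called in no comparison. The widest change of Pdk4 was 1.27 ± 0.41 (SE, adjusted p = 0.05017 by edgeR) in mdx against mdx_IL5Tg.

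The pyruvate dehydrogenase subunit genes among the 38, Pdha1 and Dlat, did not pass in any comparison. Pdha1, of the E1 component, ranged from 35.4 to 55.9 CPM, with changes of -0.05, -0.35 and -0.40 in mdx_IL5Tg against IL5Tg, mdx against mdx_IL5Tg and mdx against IL5Tg. Its mdx libraries lay below all others, with edgeR adjusted p-values of 0.1 against mdx_IL5Tg and 0.069 against IL5Tg. Dlat, of the E2 component, ranged from 7.03 to 10.5 CPM, with changes of -0.17, 0.04 and -0.13. Pdhb, an E1 gene outside the 38, fell by 0.77 ± 0.12 (SE, adjusted p = 0.0018 by edgeR) in mdx against mdx_IL5Tg. In mdx against IL5Tg Pdhb fell by 0.92 ± 0.12 (SE, adjusted p = 0.00057 by edgeR).

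**Figure D5:**
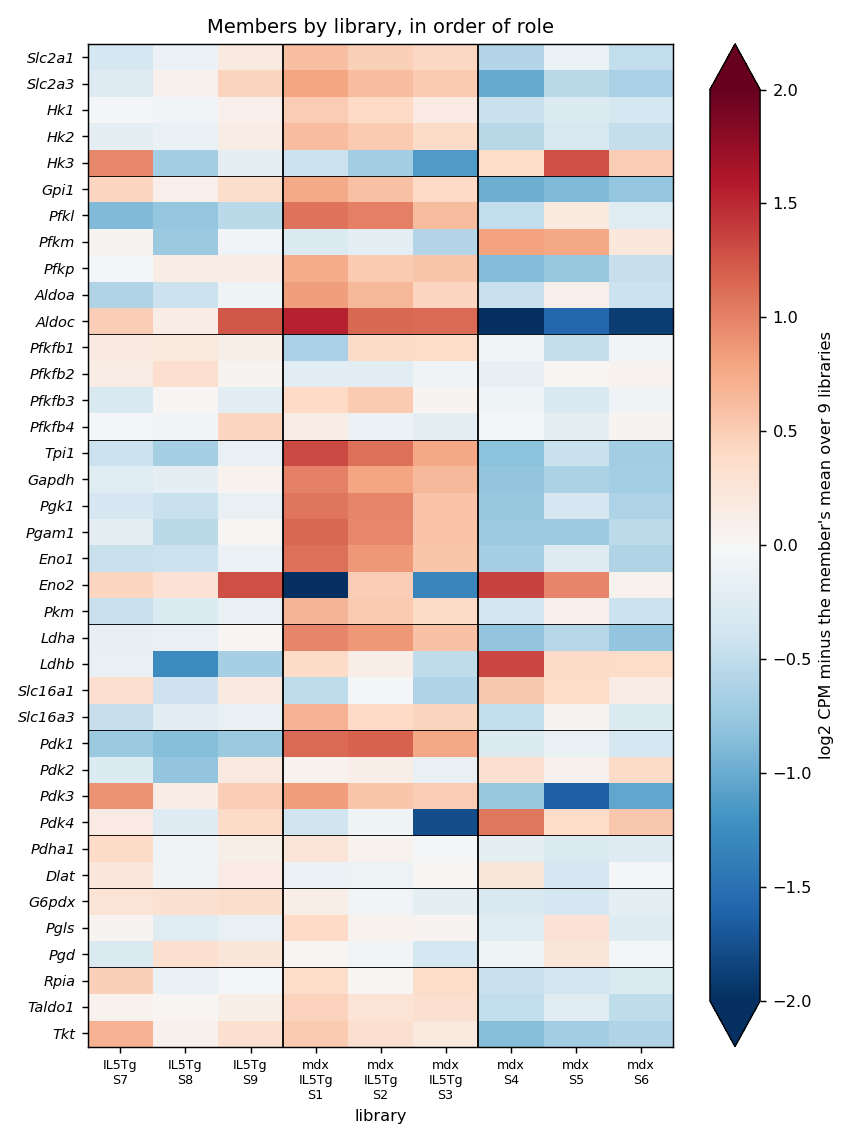
Rows are the 38 members in order of role and columns the 9 libraries, with colour for log2 CPM minus the member's own mean over the 9 libraries (red higher, blue lower, colour saturating at 2 on either side). The mdx_IL5Tg columns are red for all 13 members that rose there against IL5Tg, and palest in S3, the lowest mdx_IL5Tg library for 11 of the 13.

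Both arms of the pentose phosphate pathway lacked a call in mdx_IL5Tg against IL5Tg, with 0 of 6 members passing in edgeR (0 in DESeq2 and 2 in limma voom, and 2 at an unadjusted p under 0.05 in edgeR). Of all genes tested, edgeR called 4.35% higher and 2.87% lower in that comparison. With shares this low, a count of 0 among 6 genes says little about the pathway. In the oxidative arm, G6pdx, the gate of the pathway and the first source of its NADPH, was at 157, 162 and 166 CPM in IL5Tg, 143, 126 and 115 in mdx_IL5Tg and 105, 103 and 113 in mdx. Values went down from IL5Tg to mdx_IL5Tg to mdx, without overlap. G6pdx fell by 0.59 ± 0.12 (SE, adjusted p = 0.0068 by edgeR) in mdx against IL5Tg, and its changes of -0.34 ± 0.12 (SE, adjusted p = 0.1 by edgeR) in mdx_IL5Tg against IL5Tg and -0.26 ± 0.12 (SE, adjusted p = 0.15 by edgeR) in mdx against mdx_IL5Tg did not pass. Pgls, the lactonase, and Pgd, which makes the second NADPH, ranged from 8.13 to 12.8 and from 280.1 to 448 CPM and were called in no comparison. The changes of Pgd were -0.23, 0.17 and -0.07 (SE 0.18 each).

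In the non-oxidative arm all 3 members fell in mdx against mdx_IL5Tg, where 10.1% of all genes tested and 23 of the 38 members were called lower. Transketolase (Tkt), which moves carbon pairs between sugars, was at 396, 259 and 303 CPM in IL5Tg, 350, 305 and 279 in mdx_IL5Tg and 135, 151 and 160.4 in mdx. The mdx libraries lay below all others, and IL5Tg and mdx_IL5Tg overlapped. Tkt fell by 1.07 ± 0.17 (SE, adjusted p = 0.0022 by edgeR) in mdx against mdx_IL5Tg and by 1.10 ± 0.17 (SE, adjusted p = 0.0016 by edgeR) in mdx against IL5Tg, with a change of -0.04 ± 0.17 (SE, adjusted p = 0.91 by edgeR) in mdx_IL5Tg against IL5Tg. Transaldolase (Taldo1) was at 551, 539 and 568 CPM in IL5Tg, 722, 636 and 654 in mdx_IL5Tg and 374, 446 and 369 in mdx, with mdx lowest and mdx_IL5Tg highest without overlap. It fell by 0.76 ± 0.13 (SE, adjusted p = 0.0029 by edgeR) in mdx against mdx_IL5Tg and by 0.48 ± 0.13 (SE, adjusted p = 0.023 by edgeR) in mdx against IL5Tg, the latter call ending under 4 of 19 alternatives. Rpia, ribose phosphate isomerase, was at 18.4, 12.1 and 12.8 CPM in IL5Tg, 17.1, 13.6 and 17.1 in mdx_IL5Tg and 9.67, 10.2 and 10.8 in mdx. It fell by 0.64 ± 0.20 (SE, adjusted p = 0.042 by edgeR) in mdx against mdx_IL5Tg, a call that ended under 7 of 19 alternatives.

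Among the members that rose, the libraries of a group often stood in 1 order. Of the 13 members that rose in mdx_IL5Tg against IL5Tg, mdx_IL5Tg S1 was the highest of its group for 12 and S3 the lowest for 11. IL5Tg S9 was the highest of its group for 12 of these, and mdx S5 for 11. Over all 38 members, mdx_IL5Tg S1 was the highest of its group for 28, IL5Tg S9 for 22 and mdx S5 for 19, and mdx_IL5Tg S3 was the lowest for 30. Of all genes tested, mdx_IL5Tg S1 was the highest of its group for 35.1%, IL5Tg S9 for 25.6% and mdx S5 for 36.7%, and mdx_IL5Tg S3 was the lowest for 41.1%. Values of members within a library are not independent of each other. Without mdx S5, 15 members were called higher in mdx_IL5Tg against IL5Tg, 21 lower in mdx against mdx_IL5Tg and 11 lower in mdx against IL5Tg. With IL5Tg S7 and mdx S5 both left out, these counts were 13, 22 and 12.

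Genes outside the 38 were read from lists of related function. Beside their counts, edgeR called 4.35% of all genes tested higher and 2.87% lower in mdx_IL5Tg against IL5Tg. In mdx against mdx_IL5Tg these shares were 11.5% and 10.1%. Of 31 tested genes of neighbouring steps and isoforms, 2 rose and 0 fell in mdx_IL5Tg against IL5Tg in edgeR (3 and 3 at an unadjusted p under 0.05, 2 and 1 in DESeq2, 3 and 4 in limma voom), with a median of 0.00 beside -0.05 over all genes. The 2 were Bsg and Pgm2, a phosphoglucomutase gene, which was at 11.0, 7.63 and 8.84 CPM in IL5Tg, 41.9, 35.1 and 21.0 in mdx_IL5Tg and 7.96, 9.57 and 9.36 in mdx. Pgm2 rose by 1.83 ± 0.25 (SE, adjusted p = 0.0055 by edgeR). Of the 31, 7 fell and 2 rose in mdx against mdx_IL5Tg, Pgm2 falling by 1.87 ± 0.25 (SE, adjusted p = 9e-04 by edgeR). Also lower in mdx were Ldhc, the testis-type lactate dehydrogenase gene, which fell by 1.67 ± 0.24 (SE, adjusted p = 0.0013 by edgeR), and Pdhb, the other E1 subunit of pyruvate dehydrogenase, which fell by 0.77 ± 0.12 (SE, adjusted p = 0.0018 by edgeR). Eno3, the muscle enolase, was at 0.800, 1.36 and 0.820 CPM in IL5Tg, 1.76, 1.86 and 1.44 in mdx_IL5Tg and 6.83, 4.95 and 3.55 in mdx, and rose by 1.60 ± 0.33 (SE, adjusted p = 0.0077 by edgeR) in mdx against mdx_IL5Tg, as did 9 of 13 tested skeletal muscle fibre markers, among which it is counted.

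Of 22 tested hypoxia response genes that are not glycolytic, 9 rose and 0 fell in mdx_IL5Tg against IL5Tg in edgeR, with a median log2 change of 0.49. At an unadjusted p under 0.05 these counts were 13 and 0, in DESeq2 11 and 0, and in limma voom 14 and 0. Egln1, which encodes an oxygen-sensing prolyl hydroxylase, was at 14.0, 16.5 and 21.0 CPM in IL5Tg, 74.3, 61.5 and 55.3 in mdx_IL5Tg and 26.0, 28.7 and 28.2 in mdx and rose by 1.90 ± 0.18 (SE, adjusted p = 0.00067 by edgeR). Vegfa, the angiogenic factor, was at 395, 370.2 and 474 CPM in IL5Tg, 1014, 936 and 1042 in mdx_IL5Tg and 279, 308 and 338 in mdx and rose by 1.27 ± 0.14 (SE, adjusted p = 0.0018 by edgeR). Bnip3, a mitophagy receptor, and Egln3, another prolyl hydroxylase, rose by 1.58 ± 0.19 (SE, adjusted p = 0.0024 by edgeR) and 1.68 ± 0.20 (SE, adjusted p = 0.0024 by edgeR). Of the 22, 11 fell and 2 rose in mdx against mdx_IL5Tg, with a median of -0.74, and Vegfa fell by 1.69 ± 0.14 (SE, adjusted p = 3.3e-05 by edgeR). Not every gene of the list was highest in mdx_IL5Tg. Ndrg1 had means of 49.0, 46.6 and 77.7 CPM in IL5Tg, mdx_IL5Tg and mdx, and P4ha2 had means of 2.78, 2.51 and 5.56 CPM. Earlier results of these data already showed the rise of this gene class, and it is no independent support. Oxygen was not measured.

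Among 15 tested regulators of glucose sensing and growth, 5 rose and 0 fell in mdx_IL5Tg against IL5Tg in edgeR, and also at an unadjusted p under 0.05, in DESeq2 and in limma voom. Txnip, a brake on glucose uptake whose own expression follows glucose, was at 1869, 2339 and 2444 CPM in IL5Tg, 3987, 3735 and 4275 in mdx_IL5Tg and 2210, 2397 and 2254 in mdx and rose by 0.85 ± 0.14 (SE, adjusted p = 0.013 by edgeR). Its relative Arrdc4 rose by 0.94 ± 0.18 (SE, adjusted p = 0.019 by edgeR), Max, the partner of Myc, by 0.58 ± 0.13 (SE, adjusted p = 0.032 by edgeR), and the kinase gene Akt2 by 0.53 ± 0.13 (SE, adjusted p = 0.037 by edgeR). Myc itself had a change of -0.09 ± 0.30 (SE, adjusted p = 0.88 by edgeR). In mdx against mdx_IL5Tg 4 of the 15 fell and 0 rose in edgeR (5 and 1 at an unadjusted p under 0.05, 5 and 0 in DESeq2, 5 and 2 in limma voom), Txnip falling by 0.81 ± 0.14 (SE, adjusted p = 0.004 by edgeR).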

How the data were processed

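The authors deposited RSEM expected counts for each gene in all 9 libraries, with no normalisation. Per the submitters' processing notes, RSEM 1.3.0, STAR 2.5.3, cutadapt 2.10 and limma were used on build mm10, and no source used here gives the annotation, settings or strand handling. RSEM shares reads among near-identical genes by estimation, so paralogs and overlapping genes are uncertain. Of the values 6.03% were not whole, and they were rounded. Columns carry a group and an S number that no label holds, so each column was tied to its group only.

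Genes were kept by filterByExpr (minimum count 10), scaled by TMM factors and tested with edgeR 4.0.16 (robust quasi-likelihood, R 4.3.3) in 1 fit of all 9 libraries, with Benjamini-Hochberg adjustment over 15886 genes at a threshold of 0.05. The code was tested on simulated data. Errors of log2 changes are standard errors. Levels are TMM-normalised CPM, and levels per kb use exon-union lengths of GENCODE M21 (GRCm38), in which 54079 identifiers were found without their version. Isoform shares and promoter matches are descriptions with no test, and 49 of 72 group means of shares moved by more than the SD between libraries without division by length. Alternatives were DESeq2 1.42.0, limma 3.58.1 voom with quality weights, other scalings and filters, only the groups compared, removal of mitochondrial and haemoglobin genes, each library left out and, chosen after seeing the data, IL5Tg S7 and mdx S5 left out together and offsets for a GC trend.

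The members and gene lists were chosen with earlier results of these data known. All 38 members are accounted for. Values in every library are given for members called at least once, and other members by range. Genes outside the 38 are up to 4 per list with the smallest p, or those a result turns on. Myc, Ndrg1 and P4ha2 were named after their values were seen.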

Additional observations from a re-analysis of the deposited data

How the results depend on the processing

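No paired analysis was possible because the count columns carry S numbers that the labels' replicate numbers do not match. Of 50 calls of members over the 3 comparisons, 31 were kept under all 19 alternatives and 19 ended under 1 or more, 10 of these only when 1 library was left out; 0 changed sign. In mdx_IL5Tg against IL5Tg, the 13 members called higher became 6 to 15 when 1 library was left out. The 0 called lower became 2 with limma voom and quality weights and 1 with library totals only. In mdx against mdx_IL5Tg, the 2 called higher became 4 with DESeq2, 5 with limma voom and with library totals only, 4 with at least 50 counts in 3 libraries, 1 with only the groups compared, 1 without IL5Tg S7 and mdx S5 together, and 0 to 3 with 1 library left out. In mdx against IL5Tg, the 2 called higher became 1 with RLE factors, only the groups compared, the joint removal of IL5Tg S7 and mdx S5, or GC offsets, and 0 to 1 with 1 library left out. The 10 called lower there became 18 with limma voom and 6 to 12 with 1 library left out. Members called lower in mdx against mdx_IL5Tg numbered 19 to 26 over all alternatives.

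Scaling by library totals moved the median log2 change of all genes from -0.05 to -0.27, from 0.13 to 0.46 and from 0.01 to 0.12 in the 3 comparisons, in the order mdx_IL5Tg against IL5Tg, mdx against mdx_IL5Tg and mdx against IL5Tg. The share of higher calls among all called genes moved from 60.2% to 24.1%, from 53.3% to 84.3% and from 56.8% to 70.7%, while the members' medians moved to 0.11, -0.43 and -0.12. That share was 49.0% with DESeq2 and 48.7% with limma voom in mdx_IL5Tg against IL5Tg, and in mdx against mdx_IL5Tg it was 42.2% with GC offsets and 39.8% with only the groups compared. Which cause lies behind these shifts was not tested. Low counts, as for Eno2 (3 to 87 in a library) and Pfkfb1 (20 to 48), limit what could be detected.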

Other observations

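Glycogen is the store that feeds glucose 6-phosphate without uptake. Of 18 glycogen genes tested, 1 rose and 0 fell in mdx_IL5Tg against IL5Tg in edgeR (5 and 2 at an unadjusted p under 0.05, 4 and 0 in DESeq2, 5 and 2 in limma voom). Of all genes tested, edgeR called 4.35% higher and 2.87% lower in that comparison. In mdx against mdx_IL5Tg 6 fell and 1 rose, where 10.1% and 11.5% of all genes did. The 1 gene called higher in mdx_IL5Tg against IL5Tg was Ppp1r3b, which targets protein phosphatase 1 to glycogen. It was at 29.0, 27.8 and 38.1 CPM in IL5Tg, 62.9, 52.6 and 64.6 in mdx_IL5Tg and 30.1, 28.1 and 36.2 in mdx, and rose by 0.93 ± 0.17 (SE, adjusted p = 0.016 by edgeR). The liver phosphorylase gene Pygl was at 443, 354 and 439 CPM in IL5Tg, 641, 525 and 530.3 in mdx_IL5Tg and 235, 268 and 237 in mdx. It fell by 1.20 ± 0.14 (SE, adjusted p = 4e-04 by edgeR) in mdx against mdx_IL5Tg. Gyg, the primer protein of glycogen, fell by 1.68 ± 0.22 (SE, adjusted p = 0.00072 by edgeR), while the muscle phosphorylase gene Pygm rose by 1.20 ± 0.22 (SE, adjusted p = 0.0044 by edgeR), to between 8.30 and 8.79 CPM. Skeletal muscle fibre markers were higher in mdx as well, and their part in the Pygm value was not tested.

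The citric acid cycle burns what pyruvate dehydrogenase makes. Of 18 genes tested, 0 were called in either direction in mdx_IL5Tg against IL5Tg by edgeR (6 higher and 0 lower at an unadjusted p under 0.05, 2 and 0 in DESeq2, 6 and 0 in limma voom), with a median log2 change of 0.19 beside -0.05 over all genes. Since edgeR called only 4.35% of all genes higher and 2.87% lower there, a count of 0 among 18 says little. In mdx against mdx_IL5Tg 4 fell and 0 rose in edgeR, at an unadjusted p under 0.05, in DESeq2 and in limma voom alike. Of all genes tested, edgeR called 10.1% lower and 11.5% higher in that comparison. Sdhd, of succinate dehydrogenase, fell by 0.71 ± 0.12 (SE, adjusted p = 0.0032 by edgeR), and Ogdh, of the oxoglutarate dehydrogenase complex, by 0.72 ± 0.14 (SE, adjusted p = 0.0069 by edgeR). The malate dehydrogenase genes Mdh2 and Mdh1 fell by 0.85 ± 0.22 (SE, adjusted p = 0.019 by edgeR) and 0.64 ± 0.18 (SE, adjusted p = 0.031 by edgeR).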
